A study of Mus musculus with 25 samples.

Results

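The 10 genes described here lie beside Ifih1, the gene of the RNA sensor MDA5, on mouse chromosome 2. Kif5c, Rnd3, Rprm, Cytip, Baz2b, Rbms1, Tank, Psmd14 and Fap are on the side of lower coordinates, and Gca is on the other. They are 10 of the 13266 genes in the deposited table. They were taken by symbol from the genes within 20 Mb of Ifih1, some because their level in MDA5-deficient libraries had differed from that in the others and some because it had not. The difference between MDA5-deficient and MDA5-intact libraries chose them and is therefore given as a description. Where the text counts genes past limma's threshold in it, or in a pair of genotypes within it, the count describes the choice and is no test of the members.

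Bulk RNA of peritoneal macrophages, the resident phagocytes of the mouse abdominal cavity, was sequenced at day 0 without treatment. There were 25 libraries of 6 genotypes: 4 MDA5 KO, 4 SAMHD1 MDA5 DKO, 4 RIG-I KO, 4 SAMHD1 RIG-I DKO, 4 SAMHD1 KO and 5 WT. KO is a knockout and DKO a double knockout; SAMHD1 degrades deoxynucleotides, and RIG-I, encoded by Ddx58, is another sensor of RNA. The 8 libraries of MDA5 KO and SAMHD1 MDA5 DKO are called MDA5-deficient below, and the 17 others MDA5-intact. The labels give no sex, age, strain, number of backcrosses or design of the alleles. They do not say that libraries of 1 genotype came from separate animals, so p-values measure only the spread between these libraries, which may be technical. Bulk RNA cannot tell fewer cells of a type from less RNA per cell.

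MDA5 is a cytoplasmic helicase that binds long double-stranded RNA and signals through the mitochondrial adaptor MAVS to interferon genes. Genes close together on a chromosome are usually inherited together, so a mouse selected for a targeted allele tends to carry the neighbouring alleles of the same chromosome. The members share no single pathway. They encode a cytoskeletal regulator, a motor protein, a cell cycle protein, a calcium-binding protein, a surface protease, signalling adaptors, a proteasome subunit, a chromatin protein and an RNA-binding protein.

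In order along the chromosome, on GRCm38 with GENCODE M21 annotation, Kif5c occupies chr2:49619298-49774778 on the plus strand, 12.8 Mb from Ifih1. Rnd3 follows at chr2:51130438-51149111 on the minus strand, 11.4 Mb away, and Rprm at chr2:54084093-54085552 on the minus strand, 8.51 Mb away. Cytip lies at chr2:58129137-58195532 on the minus strand, with a gap of 4.40 Mb. Baz2b, at chr2:59899363-60209839, and Rbms1, at chr2:60750193-60963192, are both on the minus strand, with gaps of 2.39 Mb and 1.63 Mb. Tank, at chr2:61578585-61654171, and Psmd14, at chr2:61711694-61800376, are on the plus strand, with gaps of 942 kb and 795 kb. Fap, at chr2:62500943-62574075 on the minus strand, lies 21.7 kb from Ifih1 and is the nearest gene of the table on its side. Ifih1 spans chr2:62595798-62646255 on the minus strand. Gca, at chr2:62664285-62694109 on the plus strand, begins 18.0 kb beyond Ifih1, is the nearest gene of the table on the other side, and is read away from it. All are annotated as protein-coding, and each value is a count over the whole gene.

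The 250 bases before the start site are shown for Rnd3, the only member with every MDA5-deficient library above the others, for Kif5c, whose averaged difference was the largest of the members on the scale of log2(normalized count + 1), and for Gca and Ifih1, which start next to each other in opposite directions. The sequences are RefSeq's on GRCm38.p6, read 5′ to 3′ on the strand of the gene. They are chr2:51149112-51149361 for Rnd3, chr2:49619036-49619285 for Kif5c, chr2:62664077-62664326 for Gca and chr2:62646256-62646505 for Ifih1. Capitals mark matches to the TATA box (TATAAA), the GC box (GGGCGG) and the box named CCAAT on either strand; none of these matches overlap.
Rnd3: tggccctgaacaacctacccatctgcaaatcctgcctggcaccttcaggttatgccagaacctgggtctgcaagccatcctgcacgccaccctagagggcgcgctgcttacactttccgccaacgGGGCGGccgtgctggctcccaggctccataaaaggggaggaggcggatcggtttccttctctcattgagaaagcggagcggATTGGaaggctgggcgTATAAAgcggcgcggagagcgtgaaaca
Kif5c: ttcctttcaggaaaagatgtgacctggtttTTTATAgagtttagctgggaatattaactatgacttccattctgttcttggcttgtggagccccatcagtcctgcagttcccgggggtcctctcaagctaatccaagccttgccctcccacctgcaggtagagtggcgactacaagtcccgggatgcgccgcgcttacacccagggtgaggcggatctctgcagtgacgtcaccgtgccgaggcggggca
Gca: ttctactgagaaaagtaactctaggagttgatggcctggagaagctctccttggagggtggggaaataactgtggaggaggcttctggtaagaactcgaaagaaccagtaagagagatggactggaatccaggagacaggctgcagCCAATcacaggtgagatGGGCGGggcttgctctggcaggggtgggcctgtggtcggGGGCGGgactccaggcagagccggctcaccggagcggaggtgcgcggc
Ifih1: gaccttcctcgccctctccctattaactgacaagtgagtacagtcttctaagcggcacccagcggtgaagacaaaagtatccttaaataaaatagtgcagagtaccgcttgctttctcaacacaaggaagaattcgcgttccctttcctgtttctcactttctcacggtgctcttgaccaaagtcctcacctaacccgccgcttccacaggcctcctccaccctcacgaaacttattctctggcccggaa
Rnd3 holds TATAAA from base -28, 1 CCAAT read on the other strand and 1 GGGCGG, with 16 CpG. Kif5c holds 1 TATAAA on the other strand, from base -220, with 11 CpG. Gca holds 2 GGGCGG and 1 CCAAT, with 9 CpG, and Ifih1 holds no match, with 11 CpG. Of 32851 promoters of this length, 12.4% hold TATAAA, 32.7% GGGCGG and 33.8% CCAAT on either strand, and the median promoter has 6 CpG. Of the 9 members with a promoter entry, 1 (Cytip) holds the core of the interferon-stimulated response element, against 2.98% of all promoters. GAGGAAGT, a core of the site of the macrophage factor PU.1, is in 0 of the 9, against 2.44% of all promoters. Each match is only a run of letters.

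The targeted genes Ifih1 and Samhd1 were read first as a check of the labels. Values of Ddx58 are not given, so the labels of the RIG-I lines are not checked here. Ifih1 had between 0.871 and 14.9 normalized counts in the 8 MDA5-deficient libraries, against 1411 to 2482 in the 17 MDA5-intact ones, where a normalized count is a read count divided by the authors' size factor for the library. Samhd1 had 1069 to 1852 normalized counts in 10 of the 12 libraries labelled as lacking SAMHD1. It had 4952 in SAMHD1 MDA5 DKO 3 and 4767 in SAMHD1 KO 2, against 6486 to 13120 in the 13 libraries with SAMHD1. Libraries are numbered here in column order within a genotype, which need not match the replicate numbers of the labels. On the first principal component, which held 20.3% of the variance, SAMHD1 KO 2 and WT 3 stood at 63.9 and 50.9, and the other libraries between -25.8 and 20.7. The genes of the table held 25886469 to 39590589 reads per library.

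Cell type markers were summed per library in normalized counts. Of the large peritoneal macrophage markers, 10 of 10 were in the table, at 1686000 to 2201000 in MDA5-deficient and 1054000 to 2322000 in MDA5-intact libraries. The lowest sums were those of WT 3, at 1054000, and SAMHD1 KO 2, at 1107000, against 1632000 or more in each other library. Of the B cell markers, 7 of 8 were in the table, at 246.9 to 1470 (median 683.9) in MDA5-deficient and 64.1 to 4024 (median 124) in MDA5-intact libraries. This list split the MDA5-intact libraries: it summed to 64.1 to 92.2 in the libraries of RIG-I KO and of SAMHD1 RIG-I DKO, and to 124 to 4024 in SAMHD1 KO and WT. The 5 of 7 mast cell markers in the table showed the same split, at 0 to 16.7 in the RIG-I lines and 18.0 to 1280 in SAMHD1 KO and WT, with 44.7 to 203.5 in MDA5-deficient libraries. Dendritic cell markers (4 of 6 in the table) were at 551 to 1659 in MDA5-deficient and 390.2 to 1439 in MDA5-intact libraries, and small macrophage markers (4 of 5) at 8357 to 35780 in MDA5-deficient and 3099 to 22530 in MDA5-intact libraries. Of the T cell markers 1 of 6 was in the table, Lck, at 5.96 to 32.2 in MDA5-deficient and 0 to 28.6 in MDA5-intact libraries. The neuronal list had 1 of 5, Tubb3, at 282 to 449 in MDA5-deficient and 189 to 592.5 in MDA5-intact libraries. The fibroblast and mesothelial list had 0 of 10. For each measured list the MDA5-deficient range overlapped that of SAMHD1 KO and WT, and the part of these markers in the values below was not tested.

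Of the members, 6 stood apart by MDA5 genotype with no overlap between the 8 MDA5-deficient and the 17 MDA5-intact libraries: Rnd3 above, and Kif5c, Rprm, Fap, Gca and Cytip below. Tank, Psmd14, Rbms1 and Baz2b overlapped. Over all 13252 genes tested, 0.0226% had every MDA5-deficient library above every other and 0.0453% had every one below. By the averaged difference, the mean log2 level of both MDA5-deficient genotypes minus that of the 4 MDA5-intact genotypes, 6 of the 10 members passed an adjusted p under 0.05 in limma, against 0.377% of all genes (0.083% higher and 0.294% lower). With voom on the recovered reads 31 of all genes passed, 10 of them higher, against 50 and 11 here. Members were chosen on this difference, so these counts describe the choice and nothing is read from them. All 10 members were in the tested set, which needed at least 10 normalized counts in at least 4 libraries. Kif5c and Fap entered only through MDA5-intact libraries, 17 of them for Kif5c and 7 for Fap, and Rprm through 17 MDA5-intact and 2 MDA5-deficient libraries.

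**Figure D1:**
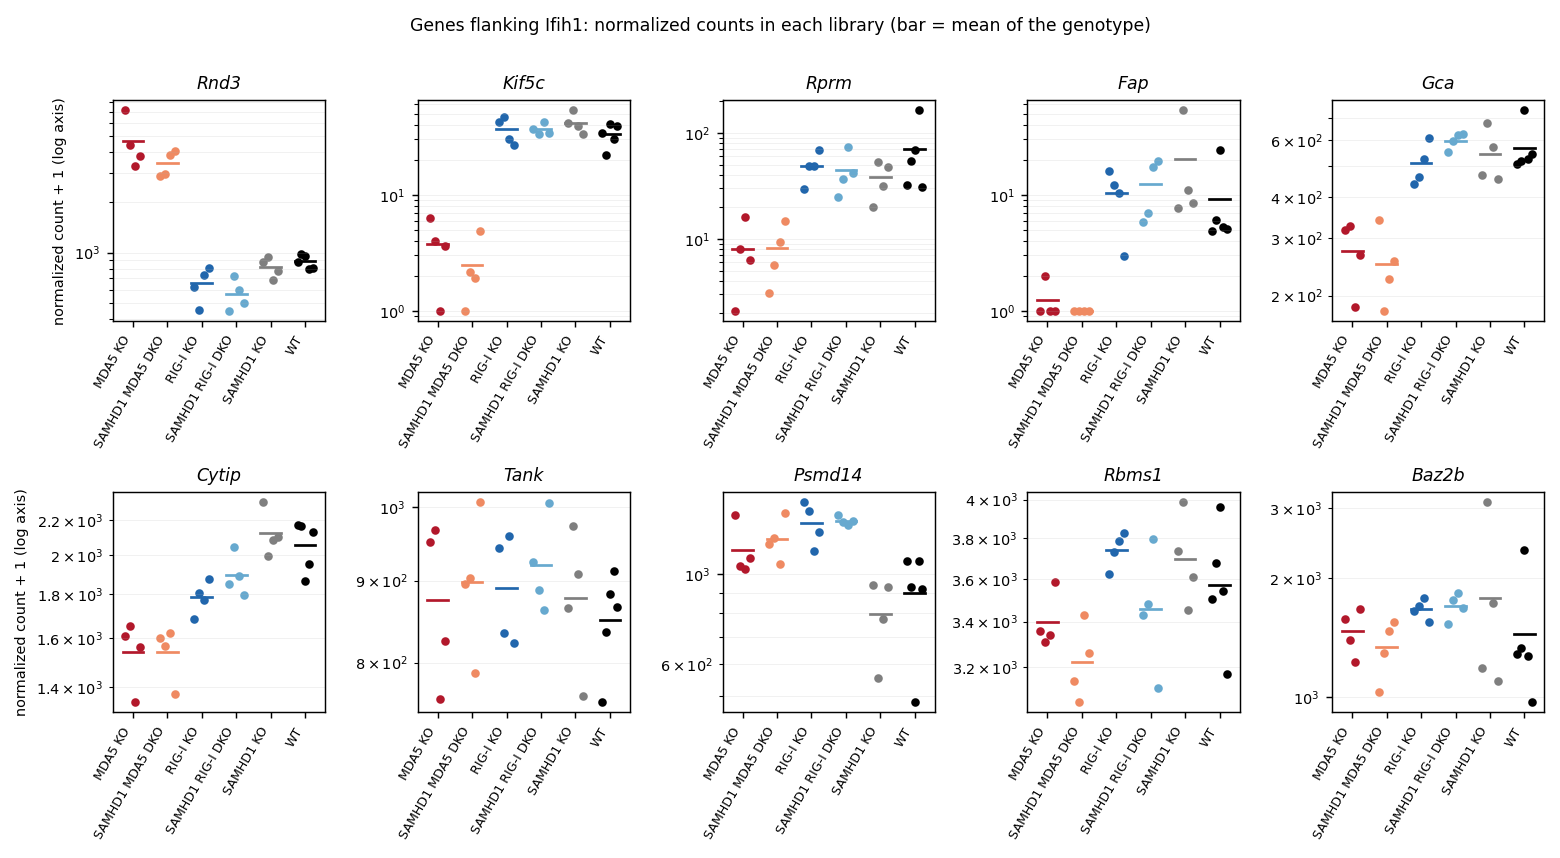
Normalized counts + 1 (log axis, a scale of its own in each panel) of the 10 members in each of the 25 libraries, by genotype; each point is a library and each bar the mean of its genotype. In the panels of Rnd3, Kif5c, Rprm, Fap, Gca and Cytip the MDA5 KO and SAMHD1 MDA5 DKO libraries do not overlap the other 17, and in those of Tank, Psmd14, Rbms1 and Baz2b they do.

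Rnd3 encodes an atypical small GTPase that loosens actin stress fibres. It had 7147, 4408, 3329 and 3826 normalized counts in MDA5 KO, and 2895, 2946, 3835 and 4099 in SAMHD1 MDA5 DKO. The MDA5-intact libraries had 625, 451, 735 and 807 in RIG-I KO libraries, 446, 728, 595 and 495 in SAMHD1 RIG-I DKO, 884, 942.5, 683 and 772 in SAMHD1 KO, and 876, 979, 959, 798 and 814 in WT. Every MDA5-deficient library lay above every other, the lowest at 2895 against a highest of 979. The means were 4061 in MDA5-deficient and 740.6 in MDA5-intact libraries, a ratio of 5.48, and the averaged log2 difference was 2.46 ± 0.12 (SE). It was 2.48 ± 0.13 without WT 3 and SAMHD1 KO 2, and 2.20 ± 0.13 without the RIG-I lines. Among the MDA5-deficient libraries the highest, MDA5 KO 1 at 7147, was followed by MDA5 KO 2 at 4408.

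Kif5c encodes a kinesin heavy chain that is best known for carrying cargo along microtubules in neurons. It had 5.36, 2.96, 0 and 2.61 normalized counts in MDA5 KO, and 0, 1.15, 0.921 and 3.92 in SAMHD1 MDA5 DKO. In the MDA5-intact libraries it had 41.4, 46.0, 29.4 and 25.6 in RIG-I KO libraries, 35.8, 32.1, 41.7 and 33.1 in SAMHD1 RIG-I DKO, 40.2, 52.3, 38.3 and 32.6 in SAMHD1 KO, and 33.1, 21.03, 39.8, 28.9 and 37.7 in WT. The gene was low in all libraries and near 0 in the MDA5-deficient ones, 2 of which had no read. Summed over libraries there were 17 reads in MDA5-deficient and 612 in MDA5-intact libraries, so that the level in MDA5-deficient libraries, scaled for depth, was 5.94% of that in the others (95% exact interval 3.44% to 9.59%). This interval and that of Fap cover counting error only. The averaged log2 difference was -3.83 ± 0.27 (SE), -3.77 ± 0.28 without WT 3 and SAMHD1 KO 2, and -3.84 ± 0.36 without the RIG-I lines. Of the neuronal markers, Map2, Rbfox3, Snap25 and Stmn2 were absent from the table, and the range of Tubb3 in MDA5-deficient libraries lay within that of the others.

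Rprm encodes Reprimo, a protein induced by p53 that holds cells before mitosis. It had 1.07, 6.91, 14.9 and 5.22 normalized counts in MDA5 KO and 2.08, 4.61, 8.29 and 13.7 in SAMHD1 MDA5 DKO. The MDA5-intact libraries had 28.6, 48.0, 48.3 and 67.8 in RIG-I KO libraries, 23.9, 35.5, 73.1 and 40.9 in SAMHD1 RIG-I DKO, 19.0, 52.3, 30.3 and 46.5 in SAMHD1 KO, and 31.2, 53.1, 67.9, 163 and 29.6 in WT. The groups came close without touching, the highest MDA5-deficient library at 14.9 and the lowest MDA5-intact one at 19.0. The means were 7.10 in MDA5-deficient and 50.5 in MDA5-intact libraries, and the averaged log2 difference was -2.74 ± 0.35 (SE). It was -2.67 ± 0.37 without WT 3 and SAMHD1 KO 2, and -2.76 ± 0.44 without the RIG-I lines.

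Fap encodes fibroblast activation protein, a serine protease on the surface of activated fibroblasts. It had 0, 0.987, 0 and 0 normalized counts in MDA5 KO and 0 in all 4 libraries of SAMHD1 MDA5 DKO. It had 14.9, 11.01, 9.45 and 1.97 in RIG-I KO libraries, 4.77, 5.92, 16.2 and 18.5 in SAMHD1 RIG-I DKO, 6.70, 52.3, 10.1 and 7.44 in SAMHD1 KO, and 3.90, 5.01, 23.3, 4.25 and 4.08 in WT. A single read stood in the 8 MDA5-deficient libraries, while every MDA5-intact library had some. With 1 read in MDA5-deficient and 197 in MDA5-intact libraries, the level was 1.09% of that in MDA5-intact libraries (95% exact interval 0.0274% to 6.12%). The averaged log2 difference was -3.18 ± 0.39 (SE), and -3.20 ± 0.43 without the RIG-I lines. The highest values, 52.3 and 23.3, came from SAMHD1 KO 2 and WT 3, and without this pair the MDA5-intact range was 1.97 to 18.5 and the difference -2.91 ± 0.30. None of the 10 fibroblast and mesothelial markers was in the table.

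Gca encodes grancalcin, a calcium-binding protein of neutrophils and macrophages. It had 316.5, 326, 184 and 266 normalized counts in MDA5 KO, and 339.9, 178.5, 224 and 255 in SAMHD1 MDA5 DKO. It had 438, 462, 525 and 608 in RIG-I KO libraries, 549, 593, 620.0 and 625 in SAMHD1 RIG-I DKO, 467.5, 678, 569 and 456 in SAMHD1 KO, and 506, 515, 739, 524 and 542 in WT. The highest MDA5-deficient library, at 339.9, lay below the lowest MDA5-intact one, at 438. The means were 261 in MDA5-deficient and 554 in MDA5-intact libraries, which is 47.1%, and the averaged log2 difference was -1.10 ± 0.11 (SE). It was -1.05 ± 0.10 without WT 3 and SAMHD1 KO 2.

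Cytip encodes a cytohesin-binding protein of blood cells that tempers integrin adhesion. It had 1607, 1654, 1344 and 1560 normalized counts in MDA5 KO and 1601, 1566, 1622 and 1373 in SAMHD1 MDA5 DKO. It had 1684, 1806, 1770 and 1877 in RIG-I KO libraries, 1851, 2043, 1890 and 1795 in SAMHD1 RIG-I DKO, 2311, 1995, 2085 and 2103 in SAMHD1 KO, and 2170, 2164, 1866, 1955 and 2130 in WT. This was the smallest separation, with the highest MDA5-deficient library at 1654 and the lowest MDA5-intact one, of RIG-I KO, at 1684. The means were 1541 in MDA5-deficient and 1970 in MDA5-intact libraries, which is 78.2%, and the averaged log2 difference was -0.35 ± 0.05 (SE). It was -0.44 ± 0.06 without the RIG-I lines.

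Tank, Psmd14, Rbms1 and Baz2b, all within 2.39 Mb of Ifih1 and nearer to it than Cytip, Rprm, Rnd3 and Kif5c, did not stand apart. Tank, an adaptor that links TRAF proteins to the kinases TBK1 and IKK epsilon, ranged from 758 to 1007 normalized counts in MDA5-deficient and from 755 to 1005 in MDA5-intact libraries, with an averaged log2 difference of 0.00 ± 0.06 (SE). Rbms1, which encodes a single-stranded nucleic acid binding protein, ranged from 3052 to 3584 in MDA5-deficient and from 3110 to 3988 in MDA5-intact libraries, with a difference of -0.13 ± 0.04. Baz2b, a bromodomain protein of chromatin remodelling complexes, ranged from 1031 to 1666 in MDA5-deficient and from 970.6 to 3118 in MDA5-intact libraries, with a difference of -0.20 ± 0.15. The MDA5-deficient range of Baz2b lay inside the other. Its highest MDA5-intact values, 3118 and 2359, came from SAMHD1 KO 2 and WT 3, without which the range was 970.6 to 1833 and the difference -0.07 ± 0.09. Psmd14, the deubiquitinating subunit of the proteasome lid, ranged from 1032 to 1417 in MDA5-deficient and from 480.5 to 1513 in MDA5-intact libraries, with a difference of 0.16 ± 0.12. Its value depended on which MDA5-intact genotypes were used: without the RIG-I lines it was 0.52 ± 0.15, and without WT 3 and SAMHD1 KO 2 it was 0.07 ± 0.07.

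The libraries of both pairs of genotypes whose labels differ in MDA5 alone took part in choosing the members. The choice thus fixed the direction of the 6 that separate, and the values and counts of each pair are a description. For Rnd3 the log2 difference was 2.34 ± 0.19 (SE) in MDA5 KO against WT and 2.06 ± 0.20 in SAMHD1 MDA5 DKO against SAMHD1 KO. For Kif5c the differences were -3.39 and -4.28, for Rprm -3.17 and -2.35, for Fap -2.60 and -3.81, for Gca -1.07 and -1.14, and for Cytip -0.42 and -0.46. For the members whose groups overlapped they were 0.04 and 0.04 (Tank), 0.40 and 0.64 (Psmd14), -0.07 and -0.20 (Rbms1), and 0.08 and -0.30 (Baz2b). In limma 5 members passed in MDA5 KO against WT, where 0.0679% of all genes did, and 5 passed in SAMHD1 MDA5 DKO against SAMHD1 KO, where 0.121% did. By limma, Fap was the separated member that missed in the pair without SAMHD1 loss, and Rprm the one that missed in the pair with it. In MDA5 KO against WT the count was 3 without MDA5 KO 3 or without MDA5 KO 4, 2 without the RIG-I lines and 1 in a fit of the 2 genotypes alone. In SAMHD1 MDA5 DKO against SAMHD1 KO it was 3 without the RIG-I lines, 3 without SAMHD1 KO 2 and SAMHD1 MDA5 DKO 3, and 2 in a fit of the 2 genotypes alone. The authors' deposited table gives log2 fold changes of 2.40 (Rnd3), -3.58 (Kif5c), -3.29 (Rprm), -4.77 (Fap), -1.05 (Gca) and -0.42 (Cytip) for MDA5 KO over WT. For its comparison of SAMHD1 KO over SAMHD1 MDA5 DKO, which runs the other way, the authors' deposited table gives -2.07, 4.74, 2.35, 6.67, 1.12 and 0.46 for the same genes. By the authors' adjusted p, unlike by limma, Rprm (0.016) and Psmd14 (0.035) were under 0.05 in that comparison. Fap (0.0981) was not under 0.05 by the authors' adjusted p for MDA5 KO over WT. The values of Fap are not exact folds, because its reads in MDA5-deficient libraries were too few. With 1 read in MDA5 KO and 42 in WT, its level in MDA5 KO was 3.03% of that in WT (95% exact interval 0.0748% to 17.8%), and 5.66% without WT 3. With 0 reads in SAMHD1 MDA5 DKO and 70 in SAMHD1 KO, it was at least 23.9-fold lower in SAMHD1 MDA5 DKO, taking 3 reads over the group as the most that a count of 0 allows, and at least 10.6-fold lower without SAMHD1 KO 2.

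**Figure D2:**
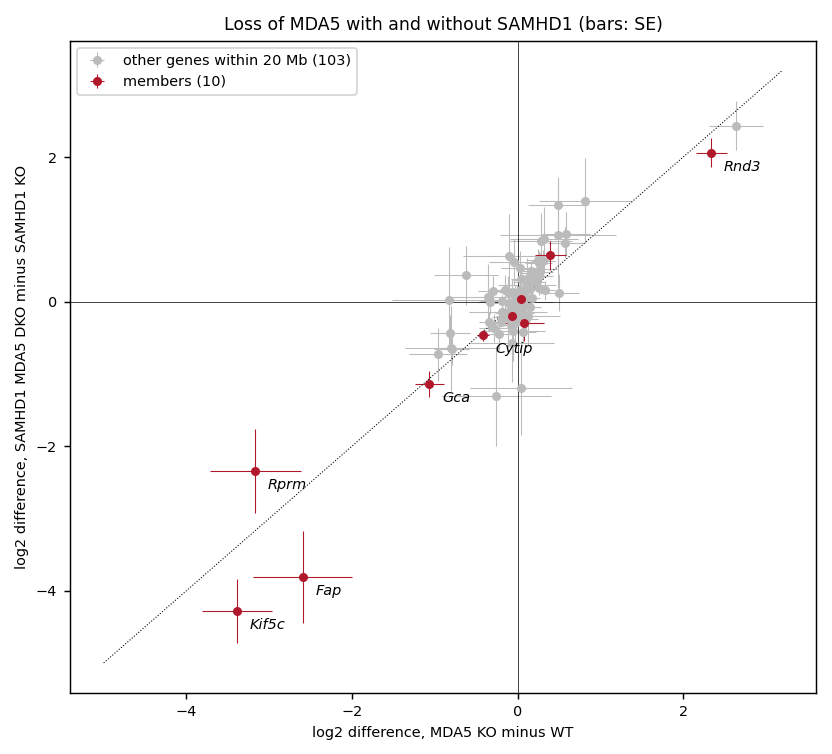
Log2 difference of SAMHD1 MDA5 DKO minus SAMHD1 KO (vertical) against that of MDA5 KO minus WT (horizontal) for the 10 members (red) and the 103 other tested genes within 20 Mb of Ifih1 (grey), with bars for the SE and a dotted line of equal differences. Rnd3, Cytip, Gca, Rprm, Fap and Kif5c lie on the same side of 0 on both axes, which their choice fixed.

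Whether loss of SAMHD1 altered the size of these differences was tested by the interaction, the difference in SAMHD1 MDA5 DKO against SAMHD1 KO minus that in MDA5 KO against WT. This term is separate from the averaged difference that chose the members. The interaction was -0.28 ± 0.28 (SE) for Rnd3, -0.89 ± 0.61 for Kif5c, 0.82 ± 0.80 for Rprm, -1.21 ± 0.87 for Fap, -0.07 ± 0.26 for Gca and -0.05 ± 0.10 for Cytip on the log2 scale. The smallest adjusted p of a member was 0.98 (limma, over all genes tested), and 0 members passed an unadjusted p under 0.05. Of all genes, 0 (0%) passed the adjusted threshold and 368 passed the unadjusted one. The standard errors of Kif5c, Rprm and Fap, from 0.61 to 0.87 log2 units, limit what could be detected for these low genes. Kif5c and Fap were near 0 in both MDA5-deficient genotypes, so for them the term cannot show a change in fold. The term equals the difference in SAMHD1 MDA5 DKO against MDA5 KO minus that in SAMHD1 KO against WT. For Fap these were -0.25 ± 0.63 and 0.96 ± 0.60. In SAMHD1 KO, Fap had 52.3 normalized counts in SAMHD1 KO 2 and 6.7 to 10.1 in the others.

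The other comparisons have the same Ifih1 allele on both sides and did not choose the members. There were 5 of them, and they share libraries. In SAMHD1 KO against WT, 0 of 10 members passed, against 0.0151% of all genes. The smallest adjusted p of a member there was 0.965 in limma, and 0 members had an unadjusted p under 0.05, as 631 of all genes did. In SAMHD1 MDA5 DKO against MDA5 KO, where both sides lack MDA5, 0 of 10 passed, against 0.00755% of all genes, with 0 members and 525 genes at an unadjusted p under 0.05. Rnd3 differed there by -0.40 ± 0.20 (SE) and Kif5c by -0.54 ± 0.44 on the log2 scale (limma adjusted p = 0.999 for each). Kif5c, at 0 to 5.36 normalized counts, and Fap, at 0 to 0.987, were near 0 on both sides of this comparison. No fall in Kif5c or Fap could be seen there, so they add little to the count of 0 of 10. In SAMHD1 RIG-I DKO set against RIG-I KO, 0 of 10 passed, against 0.0679% of all genes, again with 0 members and 470 genes at the unadjusted threshold.

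Among the 5, loss of RIG-I in the absence of SAMHD1 gave the only call of a member, Psmd14. It had 1405, 1348, 1328 and 1355 normalized counts in SAMHD1 RIG-I DKO, against 939.5, 551, 774 and 927 in SAMHD1 KO. The log2 difference was 0.80 ± 0.20 (SE), with a limma adjusted p of 0.0194; it was the 1 member of 10 that passed, where 10.5% of all genes did. In RIG-I KO it had 1513, 1433, 1144 and 1272, against 1081, 927.5, 480.5, 1079 and 917 in WT. There the difference was 0.63 ± 0.19 with a limma adjusted p of 0.0524, so that 0 of 10 members passed, where 4.21% of all genes did. The call rested on single libraries. Without SAMHD1 KO 2 the difference in SAMHD1 RIG-I DKO against SAMHD1 KO was 0.63 ± 0.19 (limma adjusted p = 0.0581). Without SAMHD1 RIG-I DKO 2 it was 0.80 ± 0.21 (limma adjusted p = 0.0587). Without WT 3 and SAMHD1 KO 2, 3 members passed in RIG-I KO against WT: Psmd14 at 0.42 ± 0.11 (limma adjusted p = 0.013), Baz2b at 0.47 ± 0.14 and Cytip at -0.24 ± 0.07 (limma adjusted p = 0.027 for both). Psmd14 also passed there without MDA5 KO 1, SAMHD1 KO 2, WT 1 or WT 4, each left out alone. The 4.21% of all genes is that of the fit with all libraries. No share of all genes is given for the changed fits, so their calls stand without a background. B cell and mast cell markers were lower in the RIG-I lines than in SAMHD1 KO and WT. Large peritoneal macrophage markers summed to 1998000 to 2322000 normalized counts (median 2146000) in the RIG-I lines, against 1054000 to 2112000 (median 1787000) in SAMHD1 KO and WT. The part of these markers in the values of Psmd14 was not tested. Rnd3 differed by -0.55 ± 0.20 in SAMHD1 RIG-I DKO against SAMHD1 KO (limma adjusted p = 0.0817, and 0.0406 without MDA5 KO 1) and by -0.46 ± 0.19 in RIG-I KO against WT (0.143).

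**Figure D3:**
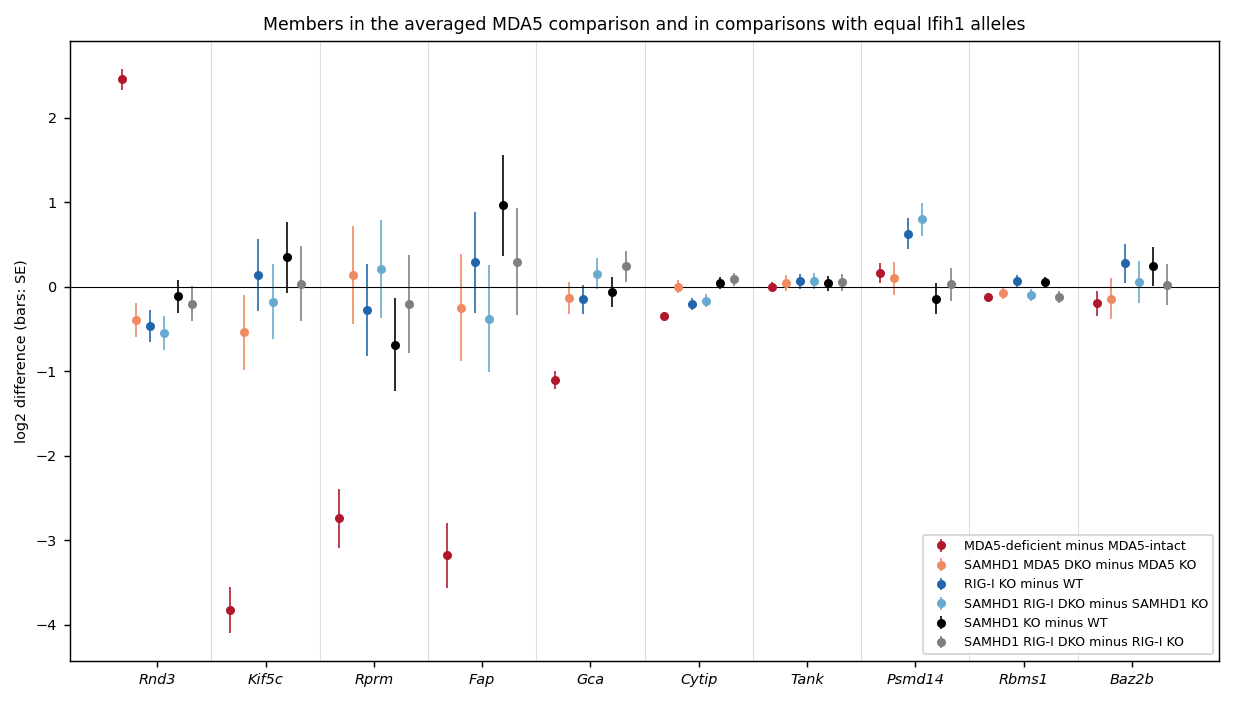
Log2 differences (bars: SE) of the 10 members in the averaged comparison of MDA5-deficient minus MDA5-intact libraries (dark red) and in the 5 comparisons with the same Ifih1 allele on both sides. The averaged values of Kif5c, Fap and Rprm lie between -3.83 and -2.74 and that of Rnd3 at 2.46, while the differences with equal alleles lie between -0.69 and 0.96.

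The neighbourhood was then taken whole, without regard to how its genes moved. Of 175 protein-coding genes annotated within 20 Mb of Ifih1, 98 were in the table, and with 15 genes of other types 113 were tested. By the averaged difference 9 of the 113 passed (7.96%), 2 higher and 7 lower in MDA5-deficient libraries, and 6 of the 9 are members. On the rest of chromosome 2 it was 4 of 932 (0.429%), and among all remaining genes 36 of 12206 (0.295%). Because the members were drawn from this window on this difference, its count is a description. The 9 genes were unevenly placed: 8 of the 45 tested genes at lower coordinates (17.8%) and 1 of the 68 at higher coordinates (1.47%), Gca. They spanned 17.4 Mb from the start of the first to the end of the last. Of the 67 genes beyond Gca none passed, and their largest averaged difference was 1.35 in size.

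The other 3 genes of the window that passed were all at lower coordinates, and 2 of them are described here. ENSMUSG00000098320, a short RNA gene at chr2:45280724-45280924 that the reference annotation calls Vis1, was the farthest, 17.3 Mb from Ifih1. It had 45.0, 30.6, 24.8 and 22.6 normalized counts in MDA5 KO, and 27.0, 24.2, 30.4 and 32.4 in SAMHD1 MDA5 DKO, against 1.94 to 9.35 in MDA5-intact libraries. It did not overlap between the groups, had an averaged log2 difference of 2.27 ± 0.21 (SE), and entered the tested set only through the 8 MDA5-deficient libraries. Nmi, an interferon-inducible partner of Myc and STAT proteins 10.6 Mb away, averaged 369 normalized counts in MDA5-deficient and 495 in MDA5-intact libraries, with overlap and a log2 difference of -0.44 ± 0.08. The separated genes were interspersed with others that were not. Between Cytip and Fap lay 14 tested genes, and 0 of them passed, where 0.377% of all genes did. These 14 include Tank, Psmd14, Rbms1 and Baz2b, chosen as members that had not differed, so this count is a description. At the edges of the window, Arhgap15, 18.2 Mb away at lower coordinates, had a difference of -0.01 ± 0.10 and Gm13680, 20.7 Mb away at higher coordinates and just outside, one of 0.17 ± 0.10.

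**Figure D4:**
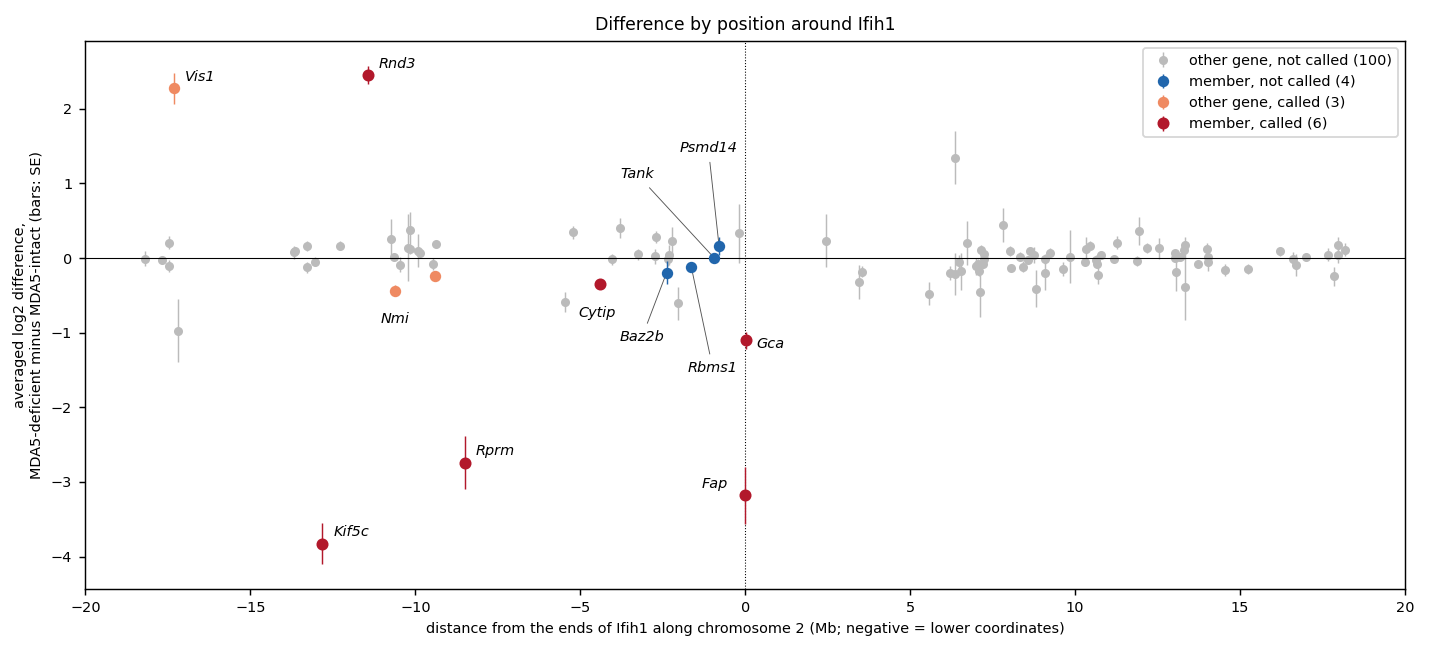
Averaged log2 difference of MDA5-deficient minus MDA5-intact libraries (bars: SE) against distance from the ends of Ifih1 (Mb) for the 113 tested genes within 20 Mb. The 9 genes that passed lie between 17.3 Mb on the side of lower coordinates and 0.018 Mb on the side of higher coordinates; the 4 members that did not pass sit between Cytip and Fap.

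The same window gave 0 of 113 genes in SAMHD1 KO against WT, in SAMHD1 MDA5 DKO against MDA5 KO, in SAMHD1 RIG-I DKO set against RIG-I KO and in the interaction. It gave 3 of 113 (2.65%) in RIG-I KO against WT and 11 of 113 (9.73%) in SAMHD1 RIG-I DKO against SAMHD1 KO, near the 4.21% and 10.5% of all genes. The windows of the other targeted genes were counted in the same way. Within 20 Mb of Samhd1, also on chromosome 2, 1 of 283 genes (0.353%) passed between SAMHD1-deficient and SAMHD1-intact libraries, against 0.74% of all genes. Within 20 Mb of Ddx58, 34 of 162 genes (21%) passed between RIG-I-deficient and RIG-I-intact libraries, against 18.5% of all genes.

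Over all 13252 genes tested, 9 had no overlap between MDA5-deficient and MDA5-intact libraries (0.0679%), and 8 of them were Ifih1 and genes within 20 Mb of it. The remaining one was Dynlt1b, a dynein light chain gene on chromosome 17, at 1713 to 2843 normalized counts in MDA5-deficient and 569.8 to 1598 in MDA5-intact libraries. Among the 9, 6 are members chosen on this split and Ifih1 is a targeted gene, so the count is a description and no test. The genes whose log2 levels followed Kif5c most closely over the 25 libraries, Ifih1 left out, were Gca (Pearson r = 0.89), Fap (0.87), ENSMUSG00000098320 (-0.87), Rnd3 (-0.87) and Gm5421 on chromosome 10 (0.83). Gca, Fap and Rnd3 were chosen on the split by MDA5 genotype, which a correlation over all libraries includes. Within genotypes, where each value was taken as its deviation from the mean of its genotype, the 45 pairs of members had a median r of 0.17, from -0.68 for Psmd14 with Baz2b to 0.72 for Fap with Baz2b. WT 3 and SAMHD1 KO 2 were then left out of the correlation but stayed in the genotype means. Psmd14 with Baz2b then had -0.26 and Fap with Baz2b 0.40. The 45 pairs ran from -0.525 for Rprm with Cytip to 0.499 for Kif5c with Tank. Because of those means, these values are not free of WT 3 and SAMHD1 KO 2.

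Per kilobase of annotated exon, the WT levels of the members ran from Rbms1, at 652 ± 52.5 normalized counts per kb (SD, n = 5), through Psmd14 (318 ± 87.2), Cytip (305 ± 20.5), Rnd3 (199.7 ± 18.5), Gca (166 ± 28.7), Tank (139 ± 9.83), Baz2b (82.0 ± 30.2) and Rprm (47.3 ± 37.7) to Kif5c (4.50 ± 1.05) and Fap (1.432 ± 1.502). Psmd14 and Cytip differed by less than either SD. Gca and Tank differed by less than the SD of Gca but more than that of Tank, and Baz2b and Rprm by less than the SD of Rprm but more than that of Baz2b. The members that separated by MDA5 genotype held places 3 to 5 (Cytip, Rnd3 and Gca) and 8 to 10 (Rprm, Kif5c and Fap) in this order. In MDA5 KO, Rnd3 reached 1055 ± 384.5 normalized counts per kb (n = 4), and Kif5c 0.383 ± 0.307.

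The comparison cannot tell apart loss of the MDA5 protein, a local effect of the altered Ifih1 allele and any stretch of chromosome 2 inherited with it. All MDA5-deficient libraries are labelled as lacking MDA5, and no source used here gives the alleles of the neighbouring genes in any line. Annotated genes overlap Kif5c, Cytip, Gca, Psmd14 and Baz2b, none of them in the table, and no source used here says if reads were counted by strand.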

How the data were processed

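Total RNA of untreated peritoneal macrophages was purified with an RNeasy kit, per the labels. As tools and builds, the submitters' processing notes list DESeq2, R 4.1.2, Salmon and STAR, and mm10 and GRCm38, without roles. The extract protocol of the labels lists others: bedtools 2.16.2, the Ensembl Gene 61 annotation and pBWA 0.5.9-r32-MPI-patch2. No source used here says which of these made the values, or which rule left 13266 genes. The values per library were deposited on a log2 scale, as variance-stabilized counts. The authors also deposited log2 fold changes, which are used only where named, with their p-values, and the mean signal per genotype, used only as a check.

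The transformation was inverted to give normalized counts. Their means differed from the deposited means by at most 8.80e-14 (relative), and 100% of values were whole reads within 0.01, at 25886469 to 39590589 reads per library. Libraries were assigned to genotypes by column names, numbered in column order. The 40 pairs within genotypes differed by more than counting noise (chi-square per degree of freedom 13.1 to 211).

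The planned count test needs deposited counts, so limma 3.58.1 (trend, robust; R 4.3.3, statmod 1.5.0) was used on log2 of normalized count + 1. All 25 libraries entered 1 fit with genotype as the factor. Tests were two-sided, with Benjamini-Hochberg adjustment over 13252 genes that reached 10 normalized counts in 4 or more libraries; 14 were left out. The added 1 understates differences of low genes. Differences of mean log2 values need not equal ratios of mean counts. The procedure was checked on simulated data. Pseudocounts, scaling, filter, scale, libraries and window width were varied.

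The members and lists were chosen with earlier results of these data known. Besides the members and Ifih1, named genes were those of the window called in the averaged difference, the nearest gene on each side of Ifih1 and the 5 most like Kif5c, the member with the largest averaged difference in log2(normalized count + 1) (by the ratio of mean counts it was Fap); Dynlt1b, the window's edge genes and genes called elsewhere on chromosome 2 were chosen after their values were seen. GENCODE M21 gave positions to 13249 genes, and promoter sequences were from RefSeq. Some genes that met these rules are not reported here.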

Additional observations from a re-analysis of the deposited data

Results flagged for a closer look

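In groups of 4 or 5 libraries, a highest or lowest library was marked when its gap to the next one, divided by the range of its group, exceeded Dixon's limit. This was done for 56 groups, and 6 were marked; chance marks about 1 in 20. All are in normalized counts. WT 3 was marked 4 times: it was high for Gca, at 739 against 542 in the nearest WT library, high for Fap, at 23.3 against 5.01, high for Baz2b, at 2360 against 1330, and low for Psmd14, at 480 against 917. SAMHD1 KO 2 was high for Fap, at 52.3 against 10.1. These 2 libraries also stood apart on the first principal component. They had the lowest sums of large peritoneal macrophage markers, 1054000 and 1107000 against 1632000 or more in each other library. Their column names end in the highest codes, 126307 and 126308. The other WT columns end in 126284 to 126287 and the other SAMHD1 KO columns in 126296 to 126298. No source used here says what the codes mean, and the part of the markers or codes in the values was not tested. WT 4 was high for Rprm, at 163 against 67.9. None of these libraries is MDA5-deficient.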

How the results depend on the processing

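No paired analysis was possible because the column names carry no replicate number of the labels. In the averaged difference, which chose them, 6 members passed in every setting, and no member reversed its direction past the threshold in any; the median of all genes moved by less than 0.01 with scaling. Of all genes, 50 passed in that difference (11 higher in MDA5-deficient libraries), 52 with TMM scaling (10), 41 on the variance-stabilized scale (10) and 31 with voom (10). The settings without the RIG-I lines, and without the 2 libraries of intermediate Samhd1 (SAMHD1 KO 2 and SAMHD1 MDA5 DKO 3), were chosen after seeing the data. Of the genes within 20 Mb, 9 passed in the averaged difference, 3 within 5 Mb, 5 within 10 Mb, and 9 to 10 with a library left out. In MDA5 KO against WT, 6 genes of the window passed, 3 without the RIG-I lines, 1 with the 2 genotypes alone, and 4 to 6 with a library left out. In SAMHD1 MDA5 DKO against SAMHD1 KO, 6 passed, 12 without WT 3 and SAMHD1 KO 2, 2 with the 2 genotypes alone, and 6 to 22 with a library left out, 22 without WT 3. Of the members, 5 passed in MDA5 KO against WT, 2 without the RIG-I lines, 1 with the 2 genotypes alone, and 3 to 5 with a library left out, 3 without MDA5 KO 3 or MDA5 KO 4. In SAMHD1 MDA5 DKO against SAMHD1 KO, 5 members passed, 3 without the RIG-I lines, 3 without the libraries of intermediate Samhd1, 2 with the 2 genotypes alone, and 5 to 7 with a library left out. In RIG-I KO against WT, 0 members passed, 3 without WT 3 and SAMHD1 KO 2, 1 without the libraries of intermediate Samhd1, and 0 to 1 with a library left out (1 without MDA5 KO 1, SAMHD1 KO 2, WT 1 or WT 4). In SAMHD1 RIG-I DKO against SAMHD1 KO, 1 passed, 0 without the libraries of intermediate Samhd1, and 0 to 2 with a library left out (0 without SAMHD1 KO 2 or SAMHD1 RIG-I DKO 2, 2 without MDA5 KO 1). No member passed in the remaining comparisons with equal alleles or in the interaction under any setting. Apart from TMM scaling, the variance-stabilized scale and voom in the averaged difference, no number of all genes is given for a changed fit. Counts of members and of window genes in the other changed fits therefore stand without a background. The averaged difference ran from -4.24 to -0.89 for Kif5c, from -4.01 to -0.58 for Fap and from -2.96 to -0.78 for Rprm, nearest to 0 on the deposited variance-stabilized scale, which compresses low counts. Fewer libraries in a fit leave fewer degrees of freedom; the cause of the other changes was not tested.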

Other observations

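Farther along chromosome 2, 4 more genes passed in the averaged difference of MDA5-deficient against MDA5-intact libraries, and all 4 overlapped between the groups; 3 of them are described here. Olfml2a, 23.6 Mb from Ifih1, averaged 7.30 ± 6.45 normalized counts in MDA5-deficient libraries (SD, n = 8) and 21.6 ± 5.12 in MDA5-intact ones (SD, n = 17), with a log2 difference of -2.03 ± 0.38 (SE). Napb, an attachment protein of vesicle fusion 86.0 Mb away, averaged 26.4 ± 10.8 in MDA5-deficient and 54.6 ± 21.8 in MDA5-intact libraries, with a difference of -1.03 ± 0.23. ENSMUSG00000085129, 104 Mb away, averaged 199.5 ± 43.9 in MDA5-deficient and 320.2 ± 40.5 in MDA5-intact libraries, with a difference of -0.69 ± 0.08. Olfml2a lies at lower coordinates than Ifih1, and Napb and ENSMUSG00000085129 at higher ones. Napb and ENSMUSG00000085129 are within 20 Mb of Samhd1, where 2 of 283 genes (0.707%) passed in this difference, against 0.377% of all genes. Of all genes on other chromosomes or without a position, 0.295% passed.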
